A study of Mus musculus with 6 samples.

Results

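A set of 10 genes of epithelial defense that lie outside the alpha-defensin and granule program of Paneth cells was followed through 6 RNA-seq libraries. They are Dmbt1, Pigr, Lypd8, Lcn2, Nos2, Duox2, Duoxa2, Slpi, C3 and Saa1, and they were taken by name from the 55414 genes of the count table. Each library was made from small intestinal Paneth cells of a wild-type (C57BL/6J) background that had been collected by FACS. The 2 groups of 3 libraries differ in the chow eaten over 7 weeks, either standard or zinc depleted, and share the injection of TNF, tumor necrosis factor, 3 hours ahead of sampling. Libraries of mice without TNF were not analysed here, so the values describe the state 3 hours after TNF and not the response to it. The study used mice of both sexes in its collected series, the age and the sex of these mice were not stated in the sources used here, and the labels do not say whether libraries of a group came from separate sorting days.

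Paneth cells are the antimicrobial secretory cells at the base of the small intestinal crypts. Many other defense genes of the gut lining are not stored in granules but are switched on by bacterial products and cytokines, through factors such as NF-kB, STAT3 and C/EBP. Some of their products act on bacteria from the lumen side: Lypd8 is a protein of the epithelial surface that binds flagellated bacteria, Dmbt1 is a mucin-like scavenger receptor that aggregates bacteria, Pigr carries IgA across the epithelium, and Lcn2 withholds iron by binding siderophores. Others make oxidants, since Nos2 produces nitric oxide and Duox2 produces hydrogen peroxide with its maturation factor Duoxa2. Slpi inhibits proteases, C3 is the central complement component, and Saa1 is an acute phase protein.

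The sequences just upstream of the canonical transcripts of 4 of these genes are shown because these genes varied widely between libraries. The ratio of the highest to the lowest library on total counts was 46.1 for Dmbt1, 32.9 for Nos2 and 27.9 for Duoxa2, and Lcn2 ran from a library with 1 count to one with 53. The sequences are the 250 bases before the start of the canonical transcript, in GRCm39, written along the gene's own strand. For Lcn2 this window lies inside the annotated span of the gene, which reaches to base 32278264. Capitals mark matches to the NF-kB consensus and to TTGCNNAA, a core of C/EBP sites. The windows lie at chr11:78811363-78811612 on the plus strand for Nos2, at chr2:32277810-32278059 on the minus strand for Lcn2, at chr7:130633526-130633775 on the plus strand for Dmbt1 and at chr2:122129130-122129379 on the plus strand for Duoxa2.
Nos2: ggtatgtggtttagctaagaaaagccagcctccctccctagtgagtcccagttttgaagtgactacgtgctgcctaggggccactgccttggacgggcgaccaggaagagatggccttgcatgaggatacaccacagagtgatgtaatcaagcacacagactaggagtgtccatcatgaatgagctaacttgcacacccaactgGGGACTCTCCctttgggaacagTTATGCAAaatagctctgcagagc
Lcn2: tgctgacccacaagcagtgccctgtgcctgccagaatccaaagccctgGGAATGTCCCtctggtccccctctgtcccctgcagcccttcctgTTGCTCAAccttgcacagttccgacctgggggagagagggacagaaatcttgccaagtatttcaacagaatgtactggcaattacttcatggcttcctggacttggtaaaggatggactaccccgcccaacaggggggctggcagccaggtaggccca
Dmbt1: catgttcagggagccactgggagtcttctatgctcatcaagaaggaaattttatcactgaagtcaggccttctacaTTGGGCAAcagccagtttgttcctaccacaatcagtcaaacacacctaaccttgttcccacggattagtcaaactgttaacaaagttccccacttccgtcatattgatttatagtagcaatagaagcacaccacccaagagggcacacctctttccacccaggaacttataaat
Duoxa2: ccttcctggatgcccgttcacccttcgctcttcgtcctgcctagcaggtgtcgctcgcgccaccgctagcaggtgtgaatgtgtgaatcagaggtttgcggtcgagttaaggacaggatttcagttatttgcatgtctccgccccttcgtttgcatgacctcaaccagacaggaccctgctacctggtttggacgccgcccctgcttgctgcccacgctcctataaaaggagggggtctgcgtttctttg
Searched on both strands, the NF-kB consensus was found in 2 of the 10 windows and in 7.61% of the 21627 windows of protein-coding genes. In Nos2 it lay at -46 to -37 (gggactctcc) and in Lcn2 at -202 to -193 (ggaatgtccc), counted back from the start of the transcript. TTGCNNAA was found in 6 of the 10 windows and in 9.37% of all windows, and the 6 genes were Dmbt1, Lcn2, Nos2, Slpi, C3 and Saa1. The Slpi window, like that of Lcn2, lies inside the annotated span of its gene. The STAT motif TTCNNNGAA was found in none of the 10 windows and in 7.73% of all. No match overlapped another in the windows shown. Duox2 on the minus strand and Duoxa2 on the plus strand of chromosome 2 start 449 bases apart and point away from each other, so their windows overlap, and neither window held any of the 3 motifs.

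The libraries held 6139397 to 12772373 counts, and the floor of detection, taken as 3 counts for a gene with none, lay at 0.235 to 0.489 CPM (CPM is the count scaled to the same sum of total counts in every library). The 10 genes together took 0.151%, 0.135% and 0.0889% of the counts in standard diet replicates 1, 2 and 3, and 0.180%, 0.0452% and 0.0338% in zinc depleted replicates 1, 2 and 3. The largest of the Wilson 95% intervals of these shares ran from 0.178% to 0.183%, so counting error was small beside the spread between libraries. All 7 Paneth cell markers were found in all 6 libraries and summed to 501800 to 624400 CPM. The libraries differed in other ways. Transcripts of 4 kb or more took 15.2%, 13.5% and 9.04% of the counts outside the alpha-defensins on standard diet and 17.0%, 6.40% and 4.88% after zinc depletion. The TMM factors, which correct a library for a few dominant genes, ran from 0.897 to 1.73 and from 0.459 to 1.46. Scaling to total counts in place of TMM moved the median log2 fold change of all tested genes to -0.67, so log2 fold changes below are with TMM unless total counts are named.

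Of the 10 genes, 8 were counted in all 6 libraries. Per length of transcript (TPM), Lypd8 was the highest with 134 ± 74.7 TPM (SD, n = 6), which is place 102 among all genes of the table. It was followed by Pigr with 72.1 ± 52.5, Duoxa2 with 31.5 ± 28.3, Dmbt1 with 14.99 ± 20.1, Duox2 with 10.1 ± 12.8 and Nos2 with 9.59 ± 12.1 TPM. Lcn2 stood at 1.62 ± 1.35 TPM and C3 at 0.0838 ± 0.0396 TPM. Lypd8 exceeded Pigr in 6 of 6 libraries, whereas Pigr exceeded Duoxa2 in 3, Duoxa2 exceeded Dmbt1 in 4, Dmbt1 exceeded Duox2 in 3 and Duox2 exceeded Nos2 in 3 of 6. The order from Pigr down to Nos2 was therefore not the same in all libraries, and it was within their spread. Nos2 exceeded Lcn2, and Lcn2 exceeded C3, in 5 of 6 libraries.

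**Figure D1:**
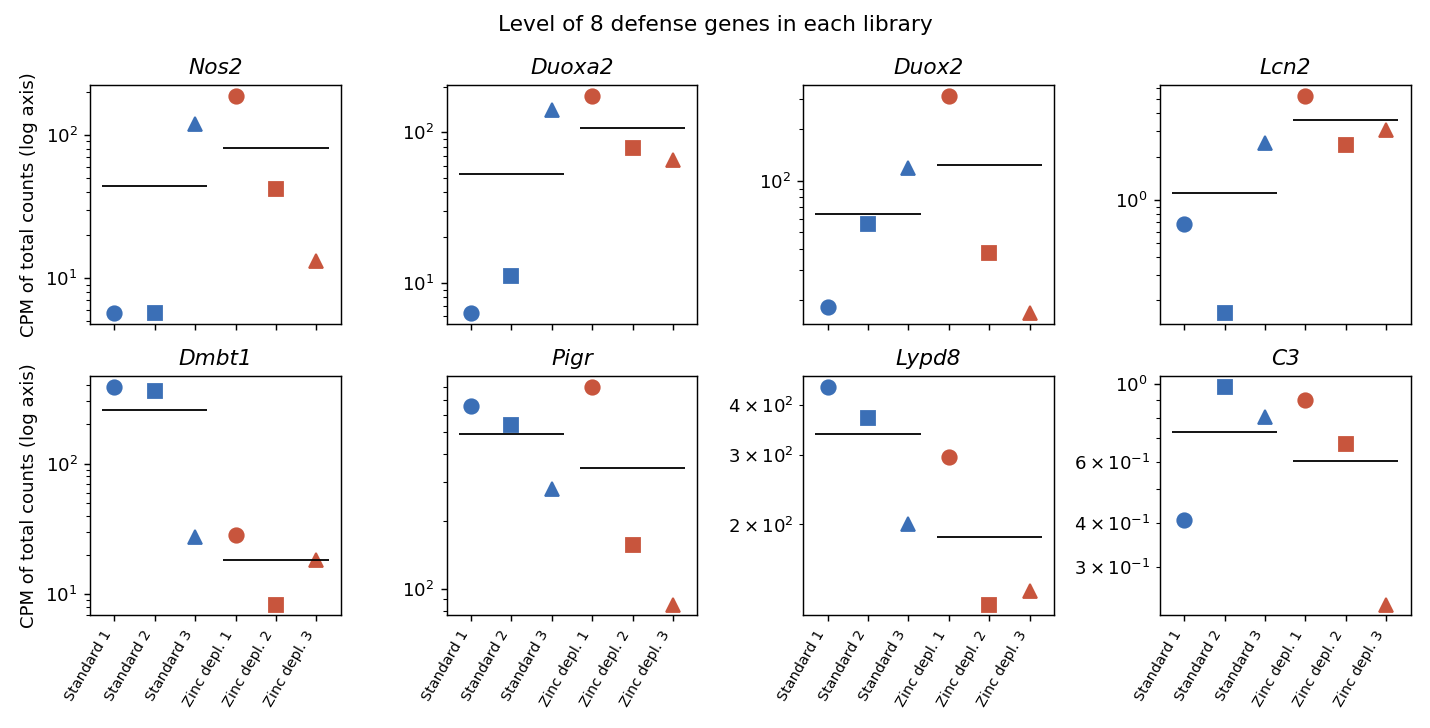
Level of 8 of the 10 genes in each of the 6 libraries, in CPM of total counts on log axes that differ between panels. Circles, squares and triangles are replicates 1, 2 and 3 (blue, standard diet; red, zinc depleted), and lines are group means. Nos2 and Duoxa2 lay lowest in standard diet replicates 1 and 2, where Dmbt1 lay highest, and all 8 genes overlapped between the diets.

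Nos2, the inducible nitric oxide synthase, differed more between libraries of the same diet than between diets. The gene (ENSMUSG00000020826, chr11:78811613-78851080, plus strand) had 42, 35 and 1194 counts on standard diet, or 5.72, 5.70 and 120 CPM. In the zinc depleted libraries it had 1872, 309 and 169 counts, or 187, 41.6 and 13.2 CPM. Standard diet replicates 1 and 2 were the lowest and standard diet replicate 3 was the second highest, so that the groups overlapped, and the highest library stood 32.9-fold over the lowest. The log2 fold change for zinc depleted against standard diet was 0.67 ± 1.12 (SE) with TMM (edgeR quasi-likelihood test, Benjamini-Hochberg adjusted p = 0.865). With limma-voom it was 2.35 (adjusted p = 0.724).

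Duoxa2, which brings Duox2 to the cell surface, had the same 2 libraries at the bottom. Its gene (ENSMUSG00000027225, chr2:122129380-122133366, plus strand) gave 6.27, 11.1 and 141 CPM on standard diet and 175, 78.6 and 65.5 CPM after zinc depletion. With TMM the zinc depleted libraries lay close together, at 120, 123 and 143 CPM, and the standard diet libraries lay at 3.64, 7.38 and 157 CPM. Standard diet replicate 3 thus held the highest value of all. The log2 fold change was 1.20 ± 1.03 (edgeR adjusted p = 0.743), and 3.00 with limma-voom (adjusted p = 0.724). Of the 75-base stretches of its transcript, 59.9% occur in no other gene and the others, compared in both directions, are shared with Duoxa1. Duoxa1 lies at chr2:122132672-122144217 on the minus strand, so the ends of these genes overlap on opposite strands. Duoxa1 had at most 4 counts in any library. How reads that fit both genes were counted is not given in the sources used here, so the level of Duoxa2 is uncertain.

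Duox2, the dual oxidase itself (ENSMUSG00000068452, chr2:122109728-122128930, minus strand), followed Duoxa2 only in part. It gave 18.3, 56.0 and 118 CPM on standard diet and 314, 37.8 and 16.8 CPM after zinc depletion. Zinc depleted replicate 1 was highest and zinc depleted replicate 3 lowest, so the zinc depleted libraries spanned the whole range. The log2 fold change was 0.80 ± 0.83 (edgeR adjusted p = 0.787). Without zinc depleted replicate 1 it was -0.31.

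The number of Duox2 counts per Duoxa2 count was 2.91, 5.06 and 0.839 on standard diet and 1.80, 0.481 and 0.257 after zinc depletion. Duox2 has the longer transcript, with 6112 bases against 1593 for Duoxa2. The 3 libraries with more than 1 Duox2 count per Duoxa2 count were also the 3 with the largest share of counts in transcripts of 4 kb or more, 13.5% to 17.0%, against 4.88% to 9.04% in the others. The part of transcript length in this ratio was not tested. Nos2, with a transcript of 4192 bases, gave 0.913, 0.515 and 0.850 counts per Duoxa2 count on standard diet and 1.07, 0.529 and 0.202 after zinc depletion.

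**Figure D2:**
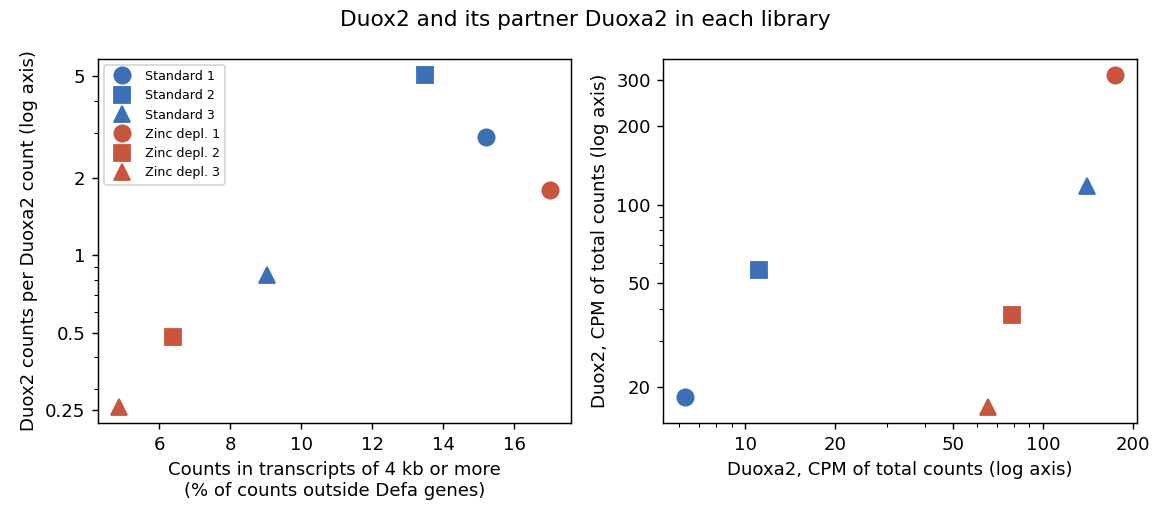
Left, Duox2 counts per Duoxa2 count (log axis) against the percent of counts outside alpha-defensin genes that fell in transcripts of 4 kb or more. Right, Duox2 against Duoxa2 in CPM of total counts on log axes. Each point is 1 library (blue, standard diet; red, zinc depleted), and the ratio runs from 0.257 to 5.06, with the 3 libraries under 1 on the left at shares of 4.88% to 9.04%.

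Lcn2, the siderophore-binding lipocalin (ENSMUSG00000026822, chr2:32274645-32278264, minus strand), was counted rarely. It had 5, 1 and 25 counts on standard diet and 53, 18 and 39 after zinc depletion. With TMM these were 0.396, 0.109 and 2.80 CPM against 3.65, 3.80 and 6.66 CPM, so that the zinc depleted libraries all lay above the standard diet libraries. On total counts, standard diet replicate 3 (2.51 CPM) lay above zinc depleted replicate 2 (2.42 CPM), and the groups overlapped. The log2 fold change of 2.11 ± 0.86 (1.63 on total counts) missed the threshold after adjustment (edgeR unadjusted p = 0.0316, adjusted p = 0.681). Lcn2 was the only 1 of the 7 tested members without overlap under TMM, where 10.1% of all tested genes had none, and 0 of 7 were without overlap on total counts, where 10.9% of all tested genes were.

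Lcn2 and Nos2 are also made by neutrophils and macrophages. The 10 markers of these cells summed to 39.9 to 98.8 CPM on standard diet and 37.0 to 61.2 CPM after zinc depletion, most of it Lyz2, a paralog of the Paneth cell lysozyme Lyz1. Without Lyz2 the other 9 summed to 4.77, 9.94 and 3.11 CPM and to 1.70, 6.06 and 4.93 CPM. With TMM these sums were 2.77, 6.62 and 3.47 CPM and 1.17, 9.49 and 10.8 CPM, highest in zinc depleted replicate 3, as was Lcn2, and lowest in zinc depleted replicate 1. On total counts the likeness was lost. The sum was then highest in standard diet replicate 2, where Lcn2 was lowest, and lowest in zinc depleted replicate 1, where Lcn2 was highest. The part of these cells in the level of Lcn2 or Nos2 was not tested. Ly6g, which marks neutrophils, was at 0 in all 6 libraries, and Itgam and Csf3r had at most 5 counts in any. Other markers of the list were higher. Of the 9 without Lyz2, 4 were counted in all 6 libraries, among them Cd68 with 4 to 16 counts and Tyrobp with 1 to 18. Ptprc had 33 counts in standard diet replicate 2.

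Dmbt1, the scavenger receptor, was high in the 2 libraries where Nos2 and Duoxa2 were lowest. The gene (ENSMUSG00000047517, chr7:130633776-130723357, plus strand) gave 385, 361 and 27.6 CPM on standard diet, from 2825, 2214 and 275 counts. In the zinc depleted libraries it gave 28.4, 8.35 and 18.3 CPM, from 284, 62 and 234 counts. Standard diet replicates 1 and 2 were high and the other 4 libraries low, and standard diet replicate 3 lay within the range of the zinc depleted libraries. The log2 fold change was -2.77 ± 0.72 with TMM and -3.81 on total counts, the former with an unadjusted p of 0.00261 and an adjusted p of 0.681 in edgeR.

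The call on Dmbt1 depended on the tool, the filter and the libraries. DESeq2 gave -2.76 with an adjusted p of 0.0238 and called 0.0338% of its genes. Without the filter on low counts edgeR gave -2.80 with an adjusted p of 2.9e-05 and called 0.427% of the genes. Without standard diet replicate 3 it gave -3.21 with an adjusted p of 0.0454. Enterocyte markers summed to 231, 299 and 61.4 CPM on standard diet and 108, 40.5 and 38.5 CPM after zinc depletion, highest in the 2 libraries where Dmbt1 was high. In standard diet replicate 1 most of the sum was Anpep (142.8 CPM). Slc5a1 and Fabp2 were also highest in these 2 libraries on total counts. Fabp1, Sis and Alpi instead gave 3.27, 2.725 and 0.4088 CPM in standard diet replicate 1 against 49.03, 22.15 and 15.15 CPM in replicate 2. All 10 of these markers were counted in at least 1 library and 6 of them in all. Stem cell markers summed to 3567, 1356 and 1172 CPM and to 565, 472 and 534 CPM on total counts, with Olfm4 the main part. With TMM these sums were 2071, 903 and 1308 CPM and 388, 740 and 1164 CPM, and the groups overlapped. Standard diet replicate 2, where Dmbt1 was highest with TMM, then lay below standard diet replicate 3 and zinc depleted replicate 3. The cells were sorted by a gate for Paneth cells, which is meant to leave such cells out. The part of either cell type in the level of Dmbt1 was not tested, and in bulk libraries fewer cells of a type cannot be told apart from less RNA per cell.

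Pigr and Lypd8 were the most abundant members, and neither differed between the diets beyond the spread of the libraries. Pigr, the receptor of polymeric IgA (ENSMUSG00000026417, chr1:130754397-130779986, plus strand), gave 653, 540 and 279 CPM on standard diet and 794, 157 and 85.1 CPM after zinc depletion. Zinc depleted replicates 1 and 3 were the highest and the lowest library of all. With TMM the range narrowed from 9.33-fold to 2.94-fold, and the log2 fold change was -0.10 ± 0.48 (edgeR adjusted p = 0.956). The 6 goblet cell markers together gave 8568, 7215 and 7547 CPM on standard diet and 12020, 5783 and 4829 CPM after zinc depletion on total counts, with zinc depleted replicates 1 and 3 again highest and lowest. With TMM zinc depleted replicate 3 held their highest sum, 10520 CPM, of which Spink4 made up 8773 CPM. Tff3 was also highest in that library with TMM, whereas Muc2, Clca1, Fcgbp and Atoh1 were lowest there. The part of goblet cells in the level of Pigr was not tested.

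Lypd8, the anti-flagellar surface protein (ENSMUSG00000013643, chr11:58269863-58281554, plus strand), had the narrowest range of the 7 tested members with TMM. It gave 444, 372 and 201 CPM on standard diet and 296, 126 and 136 CPM after zinc depletion. With TMM it lay between 197 and 296 CPM in all 6 libraries, a range of 1.51-fold, and the groups overlapped. The log2 fold change was -0.07 ± 0.39 (edgeR adjusted p = 0.964), and -0.87 on total counts.

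The genes whose pattern over the 6 libraries was most like that of Pigr, the member with the highest mean CPM, included Nucb1, Usp19, Atxn2l and Eif4g1. Their log2 CPM with TMM had Pearson's r of 0.9992, 0.9912, 0.9904 and 0.9904 with Pigr, and 104 of the 4271 genes compared had an r over 0.95. Nucb1, which encodes a Golgi calcium-binding protein, had 160, 133 and 70.4 CPM on standard diet and 171, 43.6 and 25.4 CPM after zinc depletion. The order of the libraries in Pigr, from zinc depleted replicate 1 down to zinc depleted replicate 3, was also their order in the share of long transcripts, and the part of that share in these likenesses was not tested.

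Slpi, C3 and Saa1 were at the limit of detection and were not tested. Saa1 (ENSMUSG00000074115) had 0 counts in all 6 libraries, which allows a level of up to 0.235 to 0.489 CPM, and 96.3% of its 75-base stretches occur in no other gene. Slpi (ENSMUSG00000017002) had 1 count, in zinc depleted replicate 2. C3 (ENSMUSG00000024164) had 3, 6 and 8 counts on standard diet and 9, 5 and 3 after zinc depletion. The CPM of C3 was 0.729 ± 0.291 on standard diet and 0.603 ± 0.338 on zinc depleted diet (SD, n = 3 each, exact two-sided permutation test p = 0.6, where 3 against 3 cannot go below 0.1). In Paneth cells 3 hours after TNF these 3 genes were therefore at or near the floor at this depth.

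Over the 7 members that passed the filter on low counts, 4 had a log2 fold change above 0 and 3 below, with a median of 0.67, against 0.00 over all 9749 genes tested. None passed the adjusted test in edgeR, which called 0% of all genes. An unadjusted p under 0.05 was reached by 2 of the 7, Dmbt1 and Lcn2, and by 6.62% of all genes. With standard diet replicate 3 left out, edgeR called 0.276% of genes, among them Dmbt1, Nos2 (log2 fold change 4.43, adjusted p = 0.0412) and Duoxa2 (4.60, adjusted p = 0.0147). Duox2 was not called without that library (adjusted p = 0.264).

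**Figure D3:**
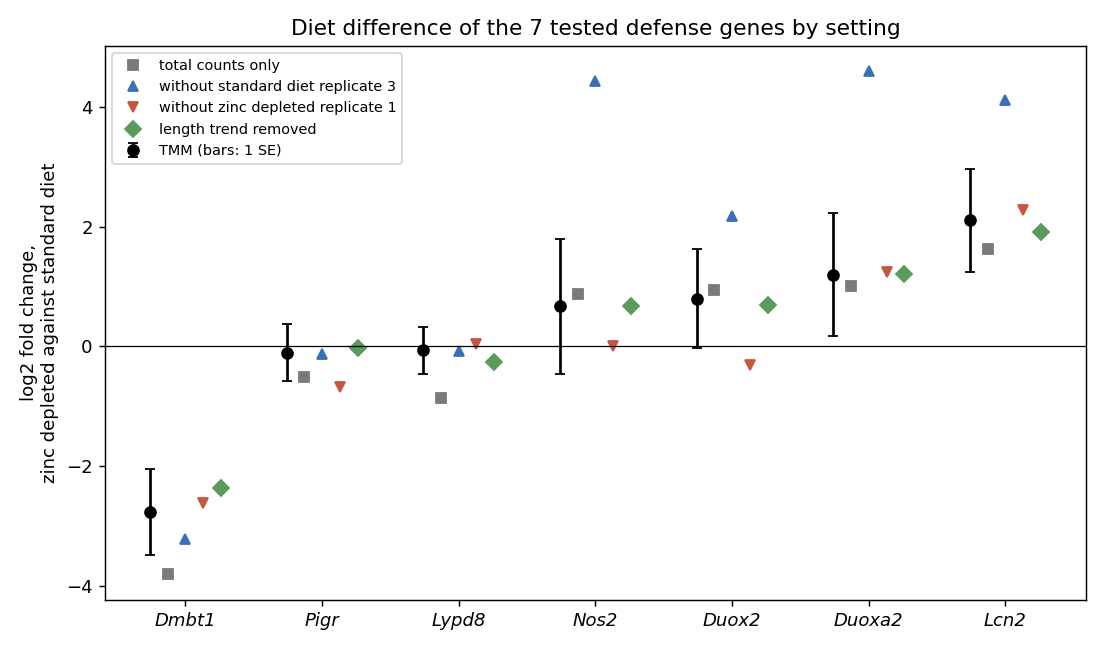
Log2 fold change of the 7 tested genes for zinc depleted against standard diet, with the edgeR value under TMM (black, bars of 1 SE) beside the values on total counts, without standard diet replicate 3, without zinc depleted replicate 1 and with the trend on transcript length removed. Without standard diet replicate 3, Nos2 and Duoxa2 stand at 4.43 and 4.60, against 0.67 and 1.20 with all libraries.

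The composition of the group differed between libraries as well. Pigr, Lypd8 and Dmbt1 made up 97.9%, 94.5% and 57.1% of the counts of the 10 genes on standard diet and 62.1%, 64.4% and 70.8% after zinc depletion. Duox2, Duoxa2 and Nos2 made up 2.00%, 5.41% and 42.6% on standard diet and 37.5%, 34.9% and 28.3% after zinc depletion. The oxidant enzymes were a small part of the group in standard diet replicates 1 and 2 and between 28.3% and 42.6% of it in the other 4 libraries.

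Around these 10 genes, 92 further genes of 6 lists were examined: oxidant and nitric oxide enzymes, complement, acute phase and metal-withholding proteins, protease inhibitors, other luminal barrier and receptor genes, and upstream receptors and regulators. Of these, 50 were tested, none passed the adjusted test, and the median was 0.56 with TMM. With TMM 37 had a log2 fold change above 0 and 13 below, against 4876 and 4873 of all 9749 genes tested. On total counts 21 lay above 0 and 29 below, with a median of -0.12, which is 0.55 above that of all genes, against 0.56 above it with TMM. The smallest adjusted p among them was 0.681. Medians of the single lists below are with TMM. On total counts those of the oxidant, complement, protease inhibitor and barrier lists fell below 0, at -0.24, -0.18, -0.28 and -0.05.

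Among the 10 tested genes of 19 oxidant and nitric oxide enzymes, the median log2 fold change was 0.51. Cyba and Noxo1, subunits of NADPH oxidases, were the most abundant, with 45.1 to 90.0 and 28.1 to 57.2 CPM. Duox1 had 3 counts and Duoxa1 had 8 over all libraries, so that Duox2 and Duoxa2 were the dual oxidase pair that was well above the floor. Arg2, an arginase that uses the same substrate as Nos2, gave 14.03, 12.2 and 2.61 CPM on standard diet and 0.400, 0 and 1.49 CPM after zinc depletion (log2 fold change -2.51 ± 0.96, edgeR unadjusted p = 0.0235, adjusted p = 0.681). Like Dmbt1, Arg2 was high in standard diet replicates 1 and 2, where Nos2 was low.

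Complement genes other than C3 were present at a low level, with 9 of 19 tested and a median of 0.61. Cfi, the protease that cleaves C3b, gave 38.5 to 63.5 CPM and Cr1l, a membrane regulator, 25.1 to 38.7 CPM, while C3 itself was under 1 CPM in every library. C1qa had the smallest unadjusted p of the list (0.0523, log2 fold change 1.68 ± 0.77, edgeR adjusted p = 0.681). With TMM it was highest in zinc depleted replicates 3 and 2, as was the sum of the neutrophil and macrophage markers without Lyz2. On total counts that sum was highest in standard diet replicate 2, and the part of these cells in C1qa was not tested. Of 12 acute phase and metal-withholding genes, only Hamp, the gene of the iron regulator hepcidin, was tested, with 0.409, 1.47 and 7.02 CPM on standard diet and 9.41, 2.02 and 2.11 CPM on zinc depleted diet (log2 fold change 0.69 ± 0.90, edgeR adjusted p = 0.828). Saa2 was at 0 in all libraries like Saa1, Hp was at most at 0.942 CPM, and Ltf had 3 counts in all.

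All 5 tested protease inhibitors of 11 had values above 0 with TMM, with a median of 0.65, and 2 of 5 on total counts. Spint2 (292 to 683 CPM) and Cst3 (74.4 to 117 CPM) were the most abundant and lay well above the floor, unlike Slpi. This did not hold for the list as a whole, since 3 of the 11 never had more than 3 counts in a library. Serpinb6a had the smallest unadjusted p (0.0419, log2 fold change 1.13 ± 0.49, edgeR adjusted p = 0.681). Of 12 other barrier genes, 9 were tested, with a median of 0.46. Ceacam1, a surface receptor bound by bacteria, gave 26.2 to 177 CPM. Lypd8l, a relative of Lypd8, gave 48.8, 20.2 and 35.9 CPM on standard diet and 39.1, 8.61 and 14.6 CPM on zinc depleted diet. Retnlb, which encodes the antibacterial protein RELM-beta, gave 11.3, 6.19 and 9.92 CPM against 8.81, 14.00 and 55.8 CPM, with a log2 fold change of 2.78 ± 0.88 (edgeR unadjusted p = 0.00923, adjusted p = 0.681). The high value of Retnlb came from zinc depleted replicate 3.

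Of 19 upstream receptors and regulators, 16 were tested, with a median of 0.58. Socs3, a feedback inhibitor that STAT3 induces, gave 87.6, 22.8 and 165 CPM on standard diet and 372, 122 and 66.1 CPM on zinc depleted diet (log2 fold change 1.24 ± 0.72, edgeR adjusted p = 0.681). Zinc depleted replicate 1 and standard diet replicate 3 were its 2 highest libraries on total counts, as they were for Nos2, Duox2 and Duoxa2. With TMM they remained the 2 highest for Nos2 and Duox2 only. For Socs3, zinc depleted replicate 2 (192 CPM) then lay above standard diet replicate 3 (184 CPM). For Duoxa2, zinc depleted replicate 1 then lay below zinc depleted replicates 2 and 3. Hnf4a, a transcription factor of differentiated epithelium, gave 172, 135 and 26.6 CPM against 76.6, 17.0 and 12.0 CPM (log2 fold change -1.06 ± 0.51, edgeR adjusted p = 0.681). Nfkbiz, the NF-kB co-regulator that controls Lcn2 in other cells, gave 7.49, 5.70 and 3.81 CPM against 27.7, 3.37 and 5.25 CPM (log2 fold change 1.54 ± 0.48, edgeR unadjusted p = 0.00822, adjusted p = 0.681). On total counts its groups overlapped.

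**Figure D4:**
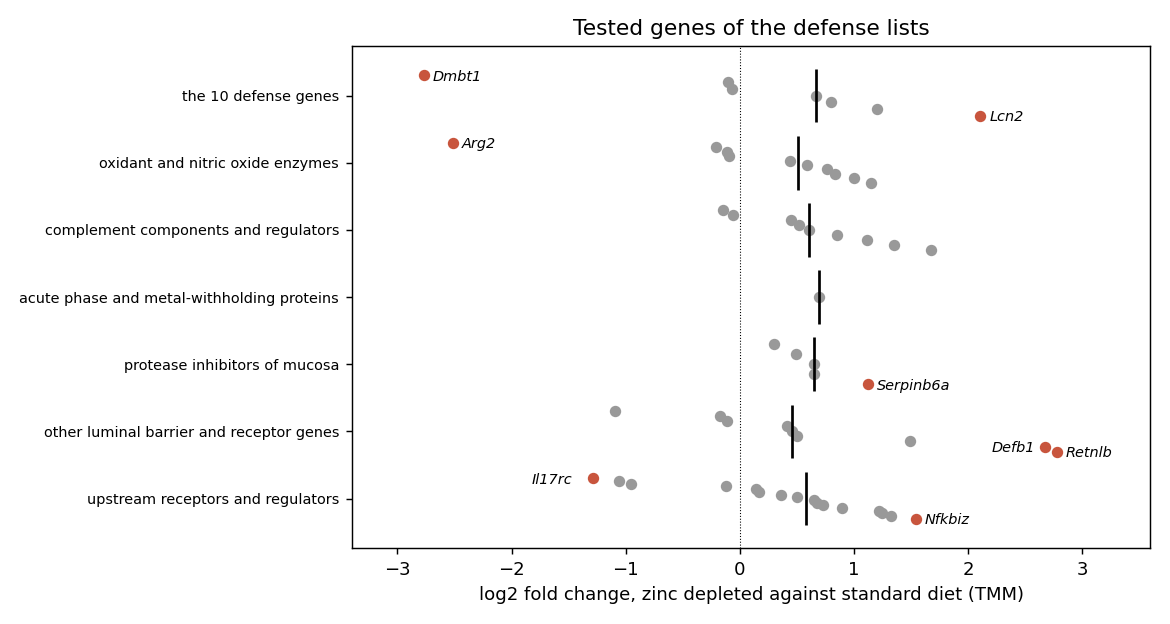
Log2 fold change (TMM, zinc depleted against standard diet) of the tested genes among the 10 defense genes and the 6 surrounding lists, with 1 point per gene and a black line at each list's median. Red points have an unadjusted p under 0.05 in edgeR, as had 6.62% of all tested genes, and none passed the adjusted test. They are Dmbt1, Lcn2, Arg2, Serpinb6a, Retnlb, Nfkbiz and, named after their values were seen, Defb1 and Il17rc.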

How the data were processed

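RNA-seq libraries of FACS-sorted Paneth cells were sequenced with single-end reads. Per the labels and the study's methods, reads were trimmed (Trimmomatic 0.39) and aligned with STAR (2.7.10a in the submitters' processing notes) to GRCm39. The authors deposited raw counts per Ensembl gene. The program that counted reads, its strand setting and its treatment of reads matching several genes were not given in the sources used here. Symbols and positions came from GENCODE M39 on the same build, which held 54749 of 55414 identifiers. Diet was tested with the edgeR 4.0.16 quasi-likelihood test in R 4.3.3 (TMM, filterByExpr, 9749 genes, Benjamini-Hochberg, threshold 0.05, two-sided), on 3 libraries per group. The SE was derived from the log2 fold change and its F statistic. The procedure was tested on simulated data. TPM used the canonical transcript length. The members, lists and tests were chosen with earlier results of these data known. Genes named from the 6 lists are the 2 with the highest mean CPM and the 1 with the smallest unadjusted p, and the 5 genes most like Pigr were chosen by Pearson's r, of which 1 is not reported here. Others, among them the low relatives (Duox1, Duoxa1, Saa2, Ltf), marker genes, Defb1 and Il17rc, were named after their values were seen. The study describes its sorted samples as taken from single mice. The labels do not tie these libraries to animals or sorting days, so p-values measure the spread between these libraries. Intervals and limits for 0 counts cover counting error only. The series design mentions 4 replicates a group, whereas 3 a group are labelled. No within-batch value could be given, since the labels name no batch. Alternatives were DESeq2 1.42.0, limma-voom 3.58.1, other scalings and filters, a replicate block, leaving out each library, and removal of a length trend, the last chosen after seeing the data.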

Additional observations from a re-analysis of the deposited data

How the results depend on the processing

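Over 15 alternatives, Dmbt1 kept a log2 fold change below 0 (-3.81 to -2.36) and Lcn2 (1.58 to 4.12), Nos2 (0.00 to 4.43) and Duoxa2 (0.65 to 4.60) kept one above 0. The adjusted test called no gene in edgeR (645 at an unadjusted p under 0.05) and none in limma-voom (625), against 6 in DESeq2 (931) and 76 without the filter on low counts (1428). Leaving out 1 library gave 0 to 28 calls, the 28 without standard diet replicate 3 (1553), and a median over the tested members of 0.0040 to 2.18, the 2.18 again without that library. The direction changed with the library left out for Pigr (-0.68 to 0.23), Lypd8 (-0.24 to 0.075) and Duox2 (-0.31 to 2.18). The cause was not tested. The labels do not say whether standard diet and zinc depleted libraries with the same number were paired. Correlations of their deviations were 0.147, -0.0584 and 0.248, which cannot settle it. An edgeR fit with the replicate block called 0 genes (962 at an unadjusted p under 0.05) and gave a median over the tested members of 0.92. It changed no call, although it moved the log2 fold changes of Nos2 to 3.03 and of Duoxa2 to 3.19. Depth limited Slpi, C3 and Saa1, which were at or near the floor.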

Other observations

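The expression of several genes of nitric oxide metabolism and of cytokine signaling is given here beside Nos2, as a description chosen after the values were seen. Gch1, which supplies the cofactor of nitric oxide synthases, had 3.68, 5.21 and 12.8 CPM on standard diet and 10.7, 6.73 and 4.15 CPM after zinc depletion. On total counts its 2 highest values were in the libraries where Nos2 was highest. With TMM both genes were highest in standard diet replicate 3, but Gch1 in zinc depleted replicate 1 (7.36 CPM) lay below zinc depleted replicates 2 and 3. Ass1, which regenerates arginine, had 11.8, 12.4 and 13.8 CPM against 20.02, 14.5 and 7.12 CPM. Cebpb had 4.22, 4.24 and 13.3 CPM against 20.1, 4.71 and 1.88 CPM, and Stat3 had 45.2, 61.1 and 58.9 CPM against 187, 32.4 and 14.8 CPM. In edgeR none of the 4 passed the adjusted test, with adjusted p of 0.836 for Gch1, 0.681 for Ass1, 0.885 for Cebpb and 0.731 for Stat3.

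Of 2 further genes with an unadjusted p under 0.05, Defb1, a beta-defensin, had 1.64, 3.26 and 1.503 CPM on standard diet and 1.40, 14.3 and 3.68 CPM after zinc depletion. Its high value came from zinc depleted replicate 2, and its log2 fold change was 2.68 ± 0.88 (edgeR unadjusted p = 0.0106, adjusted p = 0.681). Il17rc, a subunit of the IL-17 receptor, had 15.5, 15.2 and 5.51 CPM against 8.61, 1.48 and 0.783 CPM, with a log2 fold change of -1.28 ± 0.52 (edgeR unadjusted p = 0.0298, adjusted p = 0.681). The groups of Il17rc overlapped on total counts and not with TMM.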
